A study of Mus musculus with 4 samples.

Results

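The genes described here carry cells through DNA replication and mitosis. The list holds 40 genes named by symbol, and 39 of them had a probe set with a single gene symbol in the platform annotation, out of 18193 genes on the array. Ccnb1, which encodes cyclin B1, had none and was not analysed here. Each gene was represented by its brightest probe set, judged by mean log2 over all 4 arrays. Together the 39 genes had 88 probe sets, and 11 of the genes had a single one.

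The cells were thioglycollate-elicited peritoneal macrophages of C57BL6/J mice, largely recruited monocyte descendants that an irritant brings into the abdomen. WT mice were +/+:Setdb1 fl/fl and thus carried the floxed alleles without Cre, while KO mice were LysM Cre/+:Setdb1 fl/fl, so that Setdb1, an H3K9 methyltransferase, was deleted in cells that express lysozyme M, which include neutrophils besides macrophages. Macrophages of each genotype received vehicle or lipid A, the active part of LPS, for 4 h. The treatment field of the samples gives lipid A at 10 µg/ml, whereas the series design and the study's text give 10 ng/ml. The age of the mice and the number that gave cells to each array are not given in the sources used here. Each of the 4 conditions was measured on 1 array, so no difference below has a replicate check, and no p-value or SD between samples can be given.

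All signals given are linear probe set values. Where 4 signals are listed, they stand in the order of vehicle then lipid A in WT, followed by vehicle then lipid A in KO. The median over all probe sets was 65.1, 74.8, 84.2 and 75.8. A signal below the median of its array was treated as background, and detection in a comparison required the brighter of its pair of signals to reach the median of its array. The log2 ratio of the array medians was 0.20 for lipid A over vehicle in WT, -0.15 in KO, 0.37 for KO over WT under vehicle and 0.019 under lipid A, and differences of single genes are to be read beside these shifts. Probe sets of the same gene disagreed with an SD of 0.37 to 0.44 in a log2 difference, a spread that leaves out mice and arrays. Setdb1 gave 589, 521, 346 and 386 by its brightest probe set and only background by the remaining ones, and no source used here says whether these probes lie inside the deleted exons. The 8 macrophage identity genes examined, among them Csf1r, Cd68 and Lyz2, were above the median on all 4 arrays, so the markers of the labelled cell type were present.

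Cell division is driven by waves of transcription. In late G1, activator E2F factors and cyclin E open S phase, the licensing factors Cdc6 and Cdt1 load the MCM helicase on origins, and Pcna holds the polymerases on DNA. In G2 the factors Foxm1 and B-Myb, with the MuvB complex, switch on the mitotic kinases, cyclins and spindle genes through the CHR and CCAAT elements of their promoters, while in resting cells the DREAM complex keeps both waves low. Elicited macrophages are known to divide little in culture, and LPS is known to halt macrophage proliferation driven by growth factors.

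The promoters of 5 members are shown because these members mark the patterns in the signals, namely the gene with the largest lipid A response (Mki67), a mitotic kinase (Cdk1), a licensing factor and a helicase subunit that were lower with lipid A (Cdt1 and Mcm6), and the clamp that was higher in KO (Pcna). The sequences come from RefSeq on build GRCm38.p6, are written 5′ to 3′ in the direction of the gene, and cover the 250 bases before the start of the gene in that table, or 179 for Mki67, from which 71 bases inside the annotated span of the gene were left out. Capitals mark matches on either strand to the CHR letters TTTGAA, the CCAAT box CCAAT and the E2F letters TTTCGCGC, TTTGGCGC, TTTCCCGC or TTCCCGCC.
Mki67, chr7:135716451-135716629, minus strand: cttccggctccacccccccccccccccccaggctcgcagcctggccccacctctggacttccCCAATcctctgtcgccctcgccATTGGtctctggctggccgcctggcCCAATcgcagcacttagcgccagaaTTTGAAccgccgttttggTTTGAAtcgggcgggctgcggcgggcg
Cdk1, chr10:69352913-69353162, minus strand: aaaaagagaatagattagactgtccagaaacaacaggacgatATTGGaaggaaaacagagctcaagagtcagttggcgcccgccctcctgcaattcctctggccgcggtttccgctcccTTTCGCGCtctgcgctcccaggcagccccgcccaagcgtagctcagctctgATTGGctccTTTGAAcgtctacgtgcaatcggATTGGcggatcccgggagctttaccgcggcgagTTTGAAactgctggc
Cdt1, chr8:122567765-122568014, plus strand: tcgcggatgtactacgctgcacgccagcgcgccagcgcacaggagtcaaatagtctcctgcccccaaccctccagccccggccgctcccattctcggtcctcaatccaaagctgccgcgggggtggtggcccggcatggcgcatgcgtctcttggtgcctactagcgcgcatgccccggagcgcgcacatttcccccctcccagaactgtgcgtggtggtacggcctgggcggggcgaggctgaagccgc
Mcm6, chr1:128359706-128359955, minus strand: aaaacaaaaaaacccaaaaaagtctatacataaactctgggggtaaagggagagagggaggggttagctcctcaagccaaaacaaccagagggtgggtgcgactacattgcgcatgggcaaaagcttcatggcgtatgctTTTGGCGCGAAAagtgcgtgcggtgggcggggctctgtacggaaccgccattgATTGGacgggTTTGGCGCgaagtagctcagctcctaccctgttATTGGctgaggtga
Pcna, chr2:132253181-132253430, minus strand: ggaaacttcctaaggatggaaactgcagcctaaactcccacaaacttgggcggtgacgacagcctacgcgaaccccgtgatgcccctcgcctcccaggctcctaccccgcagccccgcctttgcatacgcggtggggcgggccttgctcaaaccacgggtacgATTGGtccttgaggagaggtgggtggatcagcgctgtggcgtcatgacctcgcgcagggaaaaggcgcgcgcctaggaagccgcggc

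The windows shown for Mki67 and Cdk1 each held 2 CHR matches and 3 CCAAT boxes, and Cdk1 also held 1 E2F match. Mcm6 held 3 E2F matches, of which 2 overlap on opposite strands, and 2 CCAAT boxes, Pcna held 1 CCAAT box, and Cdt1 held no match to these letters. With lipid A Mcm6 was 1.19-fold lower in WT and 1.60-fold lower in KO. Mcm7, which was 1.79-fold and 2.69-fold lower, held 1 E2F match. Over the 34 members with an entry in the promoter table, 26 held a CCAAT box, or 76.5%, against 37.5% of 27025 genes. A CHR match lay in 11 of the 34, or 32.4%, against 18.3% of all genes, and all 11 also held a CCAAT box, a pairing found in 7.34% of all genes. By phase, an E2F match lay in 5 of 16 G1 and S phase members and in 1 of 18 mitosis members, against 3.36% of all genes, while a CHR match lay in 8 of the 18 mitosis members and in 3 of the 16. Promoters were counted once per gene when any of its entries held a match, and a match is a description of letters, not of a site.

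Many mitosis genes gave only background signals in these macrophages, while much of the S phase machinery was above background. Of the 39 genes, 16 reached the median on all 4 arrays and 12 on none, or 41.0% and 30.8%, against 49.7% and 25.4% of all genes. Of the 18 G1 and S phase genes, 11 reached the median on all 4 arrays and 2, Cdc6 and Rrm2, on none. Of the 21 mitosis genes, 5 reached it on all 4 arrays and 10 on none. The 10 were the cyclin Ccnb2, the kinases Plk1, Aurkb and Bub1, the ubiquitin-conjugating enzyme Ube2c, the spindle motors Kif11, Kif20a and Kif23, the survivin gene Birc5 and the centromere motor Cenpe. A further probe set, dimmer on average, reached the median on 2 arrays for Kif23 and for Rrm2 and on 1 for Cenpe. In bulk samples, fewer cells of a type and less RNA per cell cannot be told apart.

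**Figure D1:**
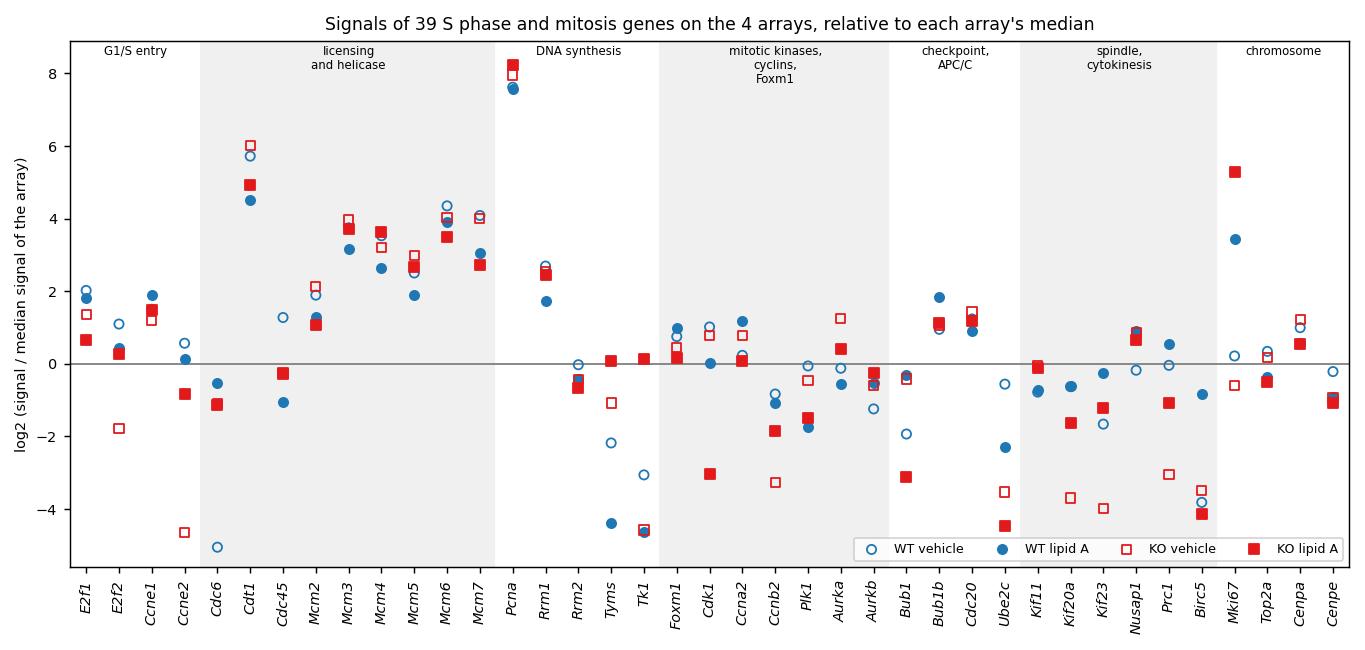
Signals of the 39 genes on the 4 arrays, each divided by the median signal of its array and shown on a log2 axis, with genes grouped by role, blue circles for WT, red squares for KO, and open and filled symbols for vehicle and lipid A. Signals of different genes come from different probes and are not to be set against each other; the helicase genes and Pcna lie above the line at 0 on every array, most spindle genes lie below it, and Mki67 lies near it with vehicle and far above it with lipid A.

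Among the G1/S entry genes, signals were low and no gene differed over 2-fold with lipid A in WT by its brightest probe set. E2f1, an activator of S phase genes, gave 264 and 262 in WT with vehicle and lipid A, and 216 and 118 in KO. Its lipid A signal in KO was therefore 2.22-fold below that in WT. A further probe set gave 190.5 in WT vehicle and 231 in KO vehicle against background signals of 32.4 and 38.8 under lipid A, so the probe sets of E2f1 disagree on both the lipid A and the genotype difference. E2f2 gave 139, 102, 24.4 and 91.9 in the same order of arrays, so that its only background signal was in KO vehicle, where it was at least 1.65-fold lower than in WT vehicle. Ccne1, which encodes cyclin E1, gave 185, 279, 193 and 212, with every difference under 2-fold, but its further probe set gave 16.6, 204, 77.2 and 98.5, so that the signal was background under vehicle in both genotypes and was 2.07-fold lower in KO than in WT under lipid A. Ccne2, the gene of cyclin E2, was above the median only in WT, with 96.5 and 82.6, against 3.37 and 42.6 in KO. Its signal in WT vehicle exceeded the KO vehicle median by a factor of 1.15, which is all the fold that these values secure.

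Most licensing and helicase genes gave lower signals with lipid A in both genotypes, while Mcm4 was higher in KO and Cdc6 was not detected. Past 2-fold, 2 of 8 were lower in WT and 3 of 7 in KO, where 8.94% and 16.0% of all detected genes were. All 8 detected members of this group were below 0 in WT, with a median log2 difference of -0.54 against -0.08 over the 12129 detected genes. In KO 6 of 7 were below 0, with a median of -0.68 against -0.20 over the 12293 detected genes. With each array centred on its median the group medians were -0.74 in WT and -0.53 in KO, against -0.28 and -0.05 over all detected genes. With quantile normalization they were -0.55 and -0.34, against -0.06 and -0.14, so that the direction held under each scaling. Over all their probe sets rather than the brightest, 16 of 19 were lower in WT and 16 of 19 were lower in KO.

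Cdt1, the licensing factor that brings the helicase to origins, gave 3435 in WT vehicle and 1699.9 in WT lipid A, and 5460.2 and 2321 in KO. It was past 2-fold in both genotypes, 2.02-fold lower with lipid A in WT and 2.35-fold lower in KO, and a further probe set went from 1345 to 653 in WT and from 1650.3 to 735 in KO. Mcm7 gave 1107, 618, 1350.2 and 501. It was 1.79-fold lower in WT and 2.69-fold lower in KO, and all 4 of its probe sets were lower with lipid A in both genotypes. Mcm2 gave 242, 183, 366 and 159, or 1.32-fold lower in WT and 2.30-fold lower in KO, while its further probe set gave log2 differences of -0.57 and -0.39.

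By their brightest probe sets, Mcm3, Mcm4, Mcm5 and Mcm6 stayed within 2-fold. Mcm3 gave 874, 664, 1311 and 999 in the same order, Mcm5 gave 369, 279, 666 and 479.6, and Mcm6 gave 1329, 1113, 1369 and 855. Each was lower with lipid A in both genotypes by its brightest probe set, although the further probe sets of Mcm3 disagreed. In WT 3 of them were higher with lipid A, by at most 0.36 in log2, and the brightest of them was 2.41-fold lower. In KO 1 was higher, by 0.84 in log2, and the brightest of them was 1.87-fold lower. Mcm4 differed from the rest, since it gave 752 and 469.7 in WT but 779 and 937 in KO, with the same directions by its further probe set, at 1068 and 554 in WT and 613 and 653 in KO. Cdc45, which joins the helicase when origins fire, gave 158 in WT vehicle and background signals of 36.0, 70.6 and 62.5 on the other 3 arrays, or at least 2.11-fold lower with lipid A in WT. Cdc6, the other loading factor, was background throughout, at 51.7 or below.

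**Figure D2:**
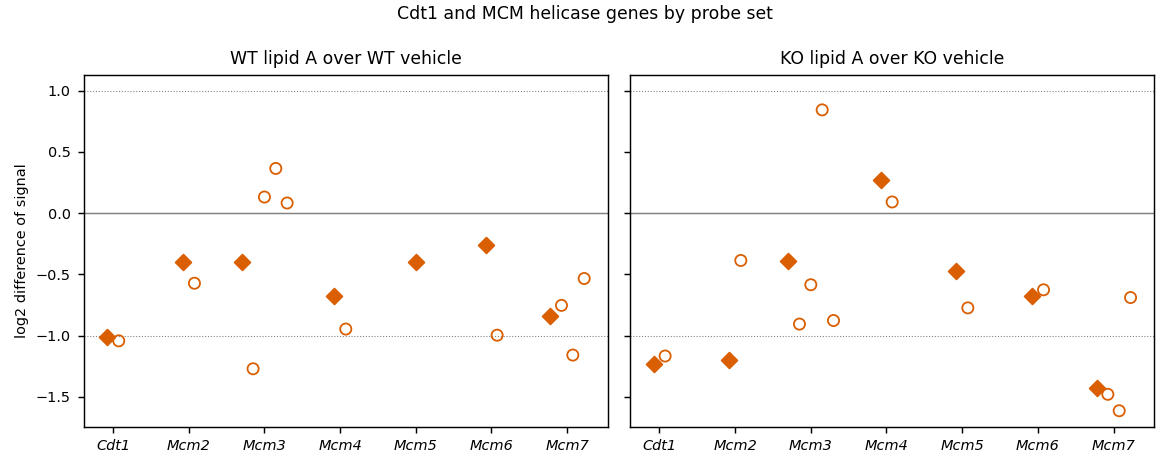
Log2 difference of signal between lipid A and vehicle for each detected probe set of Cdt1 and the MCM genes, in WT on the left and in KO on the right, with a filled diamond for the probe set used and open circles for further probe sets of the same gene. Dotted lines mark 2-fold; most points lie below 0, those of Cdt1 near -1 in both panels, while probe sets of Mcm3 spread on both sides of 0 and those of Mcm4 lie above 0 in KO only.

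Genes of DNA synthesis and nucleotide supply split into bright and background signals. Pcna, the sliding clamp, gave 12806 and 14294 in WT with vehicle and lipid A, and 20908 and 22689 in KO. Its signal hardly differed with lipid A, at 1.12-fold and 1.09-fold higher, and was 1.63-fold and 1.59-fold higher in KO than in WT under vehicle and under lipid A. Rrm1, the large subunit of ribonucleotide reductase, gave 421, 247, 486 and 416. The S phase subunit Rrm2 was background on all 4 arrays, with signals from 47.7 to 64.0 on its brightest probe set. Tyms and Tk1, the thymidylate synthase and thymidine kinase genes, reached the median in KO lipid A alone, at 79.8 and 82.6 against a median of 75.8, and such values secure a fold of no more than 1.10 over WT lipid A.

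The mitotic kinase and cyclin genes and Foxm1, where detected, were divided with lipid A in WT, with 2 of 3 above 0. In KO all 4 detected genes were below 0 with lipid A, as were 7454 of 12293 genes. Between KO and WT all 4 were above 0 under vehicle, or 2 of 4 after centring on the array medians. Under lipid A 1 of 4 was above 0. Ccna2, which encodes cyclin A2, gave 76.6 and 169.6 in WT with vehicle and lipid A, and 144 and 80.4 in KO, or 2.21-fold higher in WT and 1.79-fold lower in KO with lipid A. A further probe set of Ccna2 gave 78.3, 31.9, 128 and 108, with the opposite direction in WT. Cdk1, the kinase that drives entry into mitosis, gave 132, 76.0 and 145 on the first 3 arrays and 9.20, a background signal, in KO lipid A. It was at least 1.91-fold lower with lipid A in KO, and 1.73-fold lower in WT. Foxm1, a factor that switches on mitotic genes, lay between 85.0 and 147 on the 4 arrays, with no difference over 2-fold, while a further probe set reached the median only under lipid A, at 115 in WT and 133 in KO. Aurka, the kinase of the spindle poles, was background in WT, at 59.9 and 50.5, and in KO gave 201 with vehicle and 101 with lipid A, or at least 3.09-fold higher in KO under vehicle and at least 1.35-fold higher under lipid A.

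Of the checkpoint and spindle genes, Bub1b and Nusap1 were higher with lipid A in WT. Bub1b, a spindle checkpoint kinase, gave 126 and 268 in WT with vehicle and lipid A, and 174 and 167 in KO, so that lipid A went with 2.13-fold more signal in WT and 1.04-fold less in KO. In WT its further probe sets were higher too, from 107 to 259 and from 4.81, a background signal, to 89.7. Both were higher in KO as well, from 21.5 to 119.8 and from 72.8 to 104, so that the probe sets disagree in KO. Both of these KO vehicle signals were background. Nusap1, which binds spindle microtubules, gave 57.7, 140.5, 152 and 119, or at least 2.16-fold higher with lipid A in WT. Cdc20, an activator of the anaphase-promoting complex, gave 153, 140.6, 227 and 171, while a further probe set gave 143.6, 38.4, 226 and 171. Prc1, which bundles microtubules of the spindle midzone, reached the median only in WT lipid A, at 109, and was at least 1.43-fold lower in KO lipid A.

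Mki67, the gene of the proliferation marker Ki-67, stood apart from every other member. Its signal was 75.7 in WT vehicle and 815 in WT lipid A, and in KO 55.3 and 2959.8. With lipid A it was 10.8-fold higher in WT and at least 35.2-fold higher in KO, where the vehicle signal was background. Under lipid A it was 3.63-fold higher in KO than in WT. By the ratio as measured, from the most increased downwards, it ranked 276 among the 12129 detected genes for WT and 41 among the 12293 detected genes for KO. No other detected member was over 2-fold higher in both genotypes.

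No other mitosis member was higher with lipid A by as large a factor on its brightest probe set. Among the detected members the nearest in WT were Nusap1, Ccna2 and Bub1b, described above. Ratios of 9.03, 3.54 and 3.07 for Birc5, Bub1 and Kif23 in WT came from background signals on both arrays. Top2a, the DNA topoisomerase of dividing cells, gave 82.6 in WT vehicle and 57.9 in WT lipid A, and 95.2 and 53.8 in KO, so that both lipid A signals were background. The centromeric histone gene Cenpa gave 129.9, 111, 195 and 109.8, and a further probe set gave 3.88, 78.5, 94.9 and 8.66, each at background or close to the array median. Birc5, Ube2c, Plk1 and Ccnb2 were background on all 4 arrays. Mki67 is measured by a single probe set in this annotation, so no second probe set of the gene bears on its signal, and what this probe set detects was not tested.

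**Figure D3:**
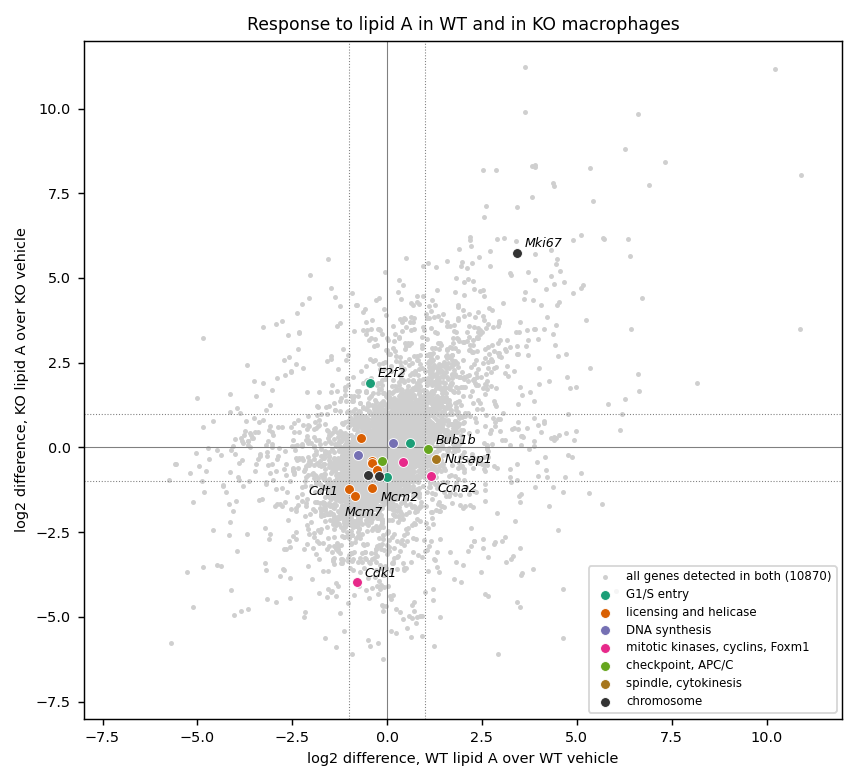
Log2 difference between lipid A and vehicle in WT on the horizontal axis and in KO on the vertical axis, for 10870 genes detected in both comparisons (grey) and for the 21 members among them (coloured by role). Dotted lines mark 2-fold and members beyond it in either genotype are named; Mki67 lies far up and to the right at 3.43 and 5.74, Cdt1, Mcm2 and Mcm7 lie in the lower left, and the mitosis genes Ccna2, Bub1b and Nusap1 lie right of 1 without a matching value in KO.

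Counted over the list, the shares past 2-fold lay near those of all genes. With lipid A in WT, 4 of 24 detected members were over 2-fold higher, Ccna2, Bub1b, Nusap1 and Mki67, where 11.8% of all detected genes were, and 2 were over 2-fold lower, Cdt1 and Cdc45, where 8.94% of all were. In KO 3 of 24 were higher with lipid A, E2f2, Tk1 and Mki67, where 11.2% of all were, and 5 were lower, Cdt1, Mcm2, Mcm7, Cdk1 and Aurka, where 16.0% of all were. Only Mki67 of the 3 higher members in KO was left when background signals were raised to the array median. For the detected members the median log2 difference was -0.24 in WT and -0.42 in KO, against -0.08 and -0.20 over all detected genes. A gene detected through its higher array alone had to differ, so these counts describe the list and carry no weight as support.

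Most detected mitosis members were lower with lipid A in KO, while in WT they were divided, at signals mostly close to background. Of 10 mitosis members detected in WT, 6 were above 0 with lipid A in WT, with a median of 0.60, while of 10 detected in KO 9 were below 0, with a median of -0.63. With each array centred on its median the mitosis medians were 0.40 and -0.48, with 6 above 0 and 8 below, against -0.28 and -0.05 over all detected genes. The G1 and S phase members had medians of -0.40 in WT and -0.31 in KO over 14 detected genes each. Of the 14, 12 were below 0 in WT and 8 in KO, where 6857 of 12129 and 7454 of 12293 detected genes were. After centring their medians were -0.60 and -0.16. Over the 21 members detected in both responses, the KO response was lower than the WT response in 16, with a median log2 difference of -0.42, against -0.09 over 10870 genes. With each array centred on its median 11 of the 21 were below 0 and the median was -0.07, against 0.26 over 10882 genes. Across the 20 members whose mean signal reached the mean of the array medians, the 2 responses had a Pearson's r of 0.71, which was 0.11 over 19 members without Mki67, against 0.65 over 10122 genes of the same brightness. Genes are not independent replicates and these coefficients describe the 4 arrays.

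Between the genotypes, the detected members were mostly slightly higher in KO under vehicle, a direction that depends on the scaling. Under vehicle 19 of 24 detected members were above 0, with a median log2 difference of 0.25 against 0.10 over 12002 detected genes. Centring on the array medians left 11 of 24 above 0, with a median of -0.12. The median over all detected genes was then -0.27, with 3541 of 12087 above 0, so the members' median lay above that of all genes under both scalings. With quantile normalization 15 of 24 members were above 0, with a median of 0.21 against 0.06 over all detected genes. Past 2-fold, Aurka and Nusap1 were higher in KO, where 11.1% of all detected genes were, and E2f2, Ccne2 and Cdc45 were lower, where 6.17% of all were. All 3 lower members had background signals in KO and none remained over 2-fold when these were raised to the array median. The helicase and licensing group had a median of 0.44 under vehicle, which was 0.07 after centring and 0.45 after quantile normalization, with Mcm5 at 1.80-fold and Cdt1 at 1.59-fold as its largest differences above 0. Over all detected probe sets of the group the median was 0.30, with 15 of 20 above 0.

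Under lipid A, 3 of 25 detected members were over 2-fold higher in KO, Tyms, Tk1 and Mki67, where 10.6% of 12335 genes were, and 4 were lower, E2f1, Cdk1, Ccna2 and Prc1, where 10.3% of all were. Of these 7, Mki67, E2f1 and Ccna2 had both signals at or above the median. The median of the detected members was -0.15, against -0.01 over all detected genes. Mcm4, at 937 in KO against 469.7 in WT, lay just inside 2-fold, while its further probe set gave 653 against 554, or 1.18-fold. The helicase and licensing group had a median of 0.45, which was 0.43 after centring and 0.58 after quantile normalization, with 4 of 7 genes above 0. Over all detected probe sets of the group the median was 0.16, with 12 of 19 above 0.

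**Figure D4:**
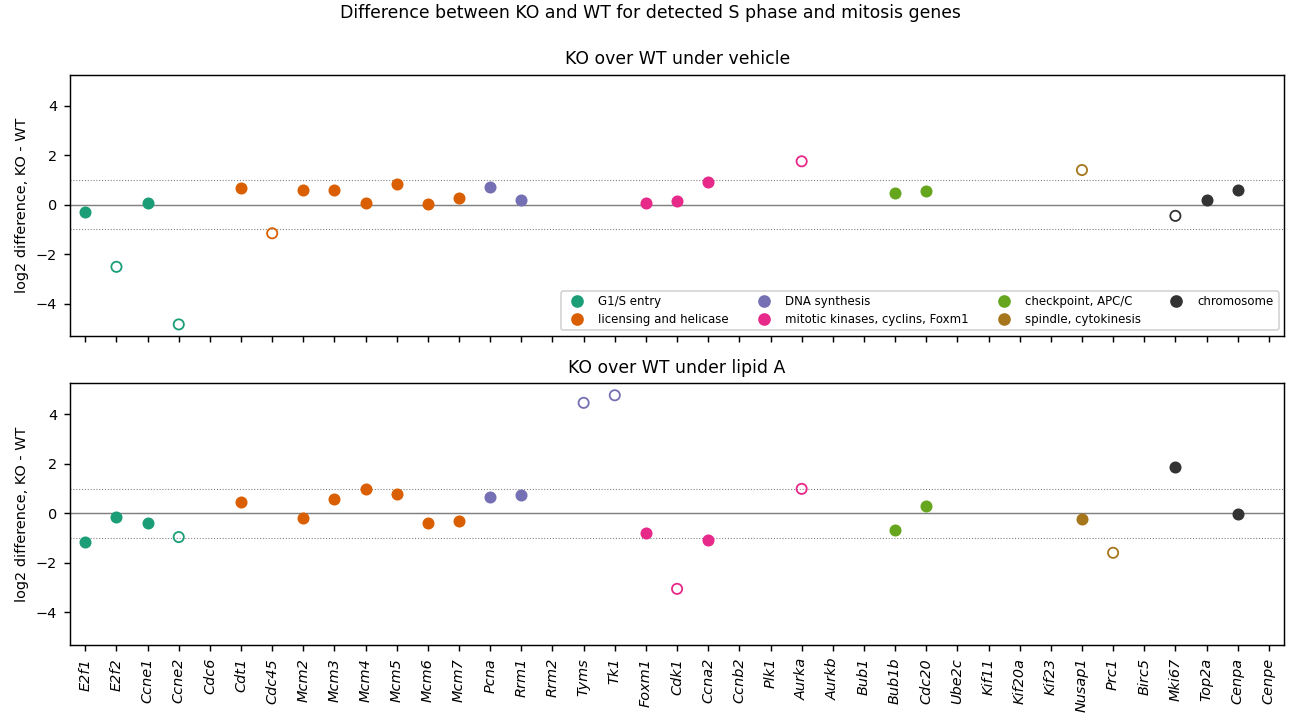
Log2 difference between KO and WT for each detected member, under vehicle in the upper panel and under lipid A in the lower panel, coloured by role, with filled points where both arrays reached their median and open points where 1 did, and dotted lines at 2-fold. Most filled points lie within the dotted lines in both panels, Mki67 lies at 1.86 under lipid A, and the differences beyond 4 belong to open points, whose lower signal is background.

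Other genes of the cell cycle were listed by role, but with earlier results of these data known, so they are no independent check. They shared the mostly lower signals of the S phase members with lipid A in WT but not the WT median of the mitosis members. Of the other S phase genes, 31 of 46 detected were below 0 with lipid A in WT and 33 of 48 in KO. Of 51 other S phase genes with a probe set, 42 reached the median on all 4 arrays, and of 78 other G2 and mitosis genes 27 did. With lipid A, 3 of 46 detected S phase genes in WT exceeded 2-fold above vehicle and 8 below, or 6.52% and 17.4%, against 11.8% and 8.94% of all detected genes. In KO 5 of 48 were higher and 9 lower, or 10.4% and 18.8%, against 11.2% and 16.0% of all. Their medians were -0.27 and -0.37. Between KO and WT, 1 of 46 was higher and 4 lower under vehicle, and 4 of 47 higher and 5 lower under lipid A, where 11.1% and 6.17% of all detected genes were under vehicle and 10.6% and 10.3% under lipid A. Gmnn, which encodes geminin, the inhibitor of Cdt1, gave 1517 in WT vehicle and 425 in WT lipid A, and 1266 and 185 in KO. It was thus 3.57-fold and 6.84-fold lower with lipid A, on its single probe set. Dnmt1, the maintenance DNA methyltransferase, gave 2146 and 980.1 in WT and 2861 and 689.7 in KO, or 4.15-fold lower in KO, and its further probe sets were lower with lipid A in both genotypes as well. Lig1, the replicative DNA ligase, was 3.65-fold lower with lipid A in KO, with 657 and 180.1, whereas it gave 381 and 452 in WT. Unlike Gmnn and Dnmt1, Timeless was higher with lipid A in both genotypes. In WT it went from 78.3 to 279, or 3.57-fold higher, and in KO it was 1.37-fold higher. Its further probe set was also higher in both genotypes, from background signals under vehicle. E2f8, a repressor of E2F targets, gave 629.9 and 529 in WT, and in KO 86.2 and 321, or 7.31-fold lower in KO under vehicle. With lipid A E2f8 was thus 3.73-fold higher in KO and 1.19-fold lower in WT. Prim2, a primase subunit, was 3.15-fold lower in KO under vehicle by its brightest probe set and 0.32 in log2 higher by another.

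Of the other G2 and mitosis genes, with lipid A in WT 5 of 56 were higher past 2-fold and 11 were lower, or 8.93% and 19.6%, and with background signals raised to the array median 1 and 3 were. In KO 4 of 49 were higher and 14 lower, or 8.16% and 28.6%, and 1 and 7 with raised signals. The shares of all detected genes were 11.8% and 8.94% in WT and 11.2% and 16.0% in KO. The medians of these genes were -0.06 in WT, with 31 of 56 below 0, and -0.37 in KO, against -0.08 and -0.20 over all detected genes. After centring on the array medians they were -0.26 and -0.22, against -0.28 and -0.05, so that in WT they lay near all genes under both scalings. The largest ratios, of Melk, Kif18a, Nuf2 and Ska3 in WT and of Cenph, Sgo1, Ndc80 and Ect2 in KO, all had a background signal on the lower side and secured no fold over 1.56. Cenpw, a centromere gene, was at least 2.27-fold lower in KO than in WT under lipid A, with 172 in WT and a background signal in KO. Between KO and WT under vehicle, 6 of 53 were higher and 3 lower, and 0 in either direction with raised signals, and under lipid A 4 of 52 were higher and 11 lower, and 2 and 3 with raised signals. These compare with the 11.1% and 6.17% of all detected genes under vehicle and 10.6% and 10.3% under lipid A. Under vehicle 29 of the 53 were above 0, with a median of 0.10, as over all detected genes. Their median was -0.28 against -0.27 after centring, and -0.16 against 0.06 with quantile normalization. Of the other S phase genes 30 of 46 were above 0 under vehicle, with a median of 0.17.

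Among the Rb family and its partners, 1 of 13 detected genes was over 2-fold higher and 1 lower with lipid A in WT, and 2 of 14 were higher and 3 lower in KO, or 7.69% and 7.69% in WT and 14.3% and 21.4% in KO, near the shares of all detected genes of 11.8% and 8.94% in WT and 11.2% and 16.0% in KO. The pocket protein gene Rbl2 was 2.35-fold lower with lipid A in WT and 2.51-fold lower in KO, from 801 to 340.5 and from 819.9 to 326, and its further probe set gave log2 differences of -0.47 and -0.44. Rb1 gave 2481 and 1364 in WT and 1750.3 and 970.5 in KO. Rbl1 was higher with lipid A in WT, at 1445 and 2569. Myc, which drives growth and S phase entry, gave 222 in WT vehicle and 718 in WT lipid A, and 569 and 1153 in KO, so that in WT it was 3.24-fold higher with lipid A, and it was 2.57-fold higher in KO than in WT under vehicle. E2f5, a repressor E2F, was 3.31-fold higher with lipid A in KO, from 380.5 to 1258, and 1.14 higher on the log2 scale by a further probe set. Lin9, a subunit of the MuvB complex, was 2.06-fold lower in KO than in WT under vehicle, with 297 and 144.3, and at least 3.35-fold lower under lipid A, while a further probe set gave 52.6 and 117 under vehicle, in the opposite direction. Lin52, another subunit, was at least 1.69-fold higher in KO under lipid A, with a background signal of 9.72 in WT and 126 in KO. Its further probe set gave 11.3 and 87.4 under lipid A, but 74.7 and 37.6 under vehicle.

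Markers of other cells moved with genotype beside these genes, and their part in the differences was not tested. The summed signal of 8 genes of resident large peritoneal macrophages, cells known to divide in place, was 1854 and 1802 on the WT arrays and 6516 and 5496 on the KO arrays. Of 6 detected genes, 5 were over 2-fold higher in KO under each treatment, also with background signals raised to the array median. Of all detected genes 11.1% were under vehicle and 10.6% under lipid A. Gata6, which defines these cells, gave 114 and 26.9 in WT and 406 and 231 in KO, while Timd4 and Alox15 were background on all 4 arrays. Of 9 B cell genes, 5 of 8 detected were over 2-fold higher in KO under vehicle and 4 of 7 under lipid A. With raised signals 3 and 4 were. Ms4a1 gave 143 and 130.3 in WT and 2399 and 2931 in KO. Blnk and Cd22, which macrophages also express, held most of the summed B cell signal, which ran from 11959 to 16325. The 6 T and NK cell genes summed to 224 and 343 in WT and to 733 and 672 in KO, with Ncr1 background throughout. Over 2-fold higher in KO were 3 of 3 detected genes under vehicle and 3 of 5 under lipid A, or 3 and 1 with raised signals. The 3 under vehicle, Cd3d, Cd3g and Cd2, were background in WT and thus detected only through KO, so these counts are descriptive. Neutrophil genes summed to 5721 and 4441 in WT and to 1468 and 1219 in KO. Under vehicle 4 of their 7 detected genes were lower in KO past 2-fold while 2 were higher, or 3 and 0 with raised signals. Of all detected genes 6.17% were lower and 11.1% higher. Genes of mesothelium and fibroblasts summed to 1648 and 1456 in WT and to 910.0 and 756 in KO. The fibroblast genes Dcn, Col1a2 and Col3a1 held most of this sum. Msln, a mesothelial gene, went the other way, with background signals of 6.70 and 45.2 in WT and 119 and 83.3 in KO. Upk3b, Krt19 and Wt1 were background on all 4 arrays. The 5 mast cell and erythroid genes summed to 121 and 189 in WT and to 249 and 341 in KO.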

How the data were processed

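Gene expression was measured on Affymetrix whole-genome mouse arrays, 1 for each of 4 conditions, which leaves no replicate spread and limits the precision to that of single arrays. The authors deposited the values as the intensity of each probe set, on a linear scale; the sources used here name no summary software. With 2% of values trimmed from each tail, all arrays had a mean of 500.004, so the arrays had been scaled to a common value. Of 45101 probe sets, 64 controls were left out, and of the other 45037, 34945 had 1 gene symbol in the platform annotation, 932 had several and 9160 had none.

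From these values log2 differences between arrays were computed for 4 comparisons with a threshold of 2-fold, without a test. The study's present and increased calls were not used here. The brightest probe set by mean log2 stood for a gene. Where the lower signal of a pair was background, a fold is given as at least the brighter signal over the median of the dimmer array. The spread between probe sets is the SD of the log2 difference between further and brightest probe sets, divided by the square root of 2. The members and the lists of other cell cycle genes and markers were chosen with earlier results of these data known. All members may be named; of the other lists, up to 4 detected genes with the largest log2 difference in each comparison were candidates for naming. Promoter letters were searched in the RefSeq promoter table of build GRCm38.p6, which held 34 of the 40 genes.

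Alternatives were centring on the array median, quantile normalization, raising background signals to the median, requiring both arrays at the median, no filter, other rules for the probe set, and thresholds of 1.5-fold and 3-fold. The calculations used Python 3.11.15, numpy 2.4.6, pandas 2.3.3, SciPy 1.17.1 and matplotlib 3.10.9, and were tested on simulated data.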

Additional observations from a re-analysis of the deposited data

Results flagged for a closer look

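For 4 genes the differences measured in the 2 genotypes, or under the 2 treatments, had opposite signs and both exceeded the SD between probe sets of a gene in their comparison. Other members had opposite signs with 1 or both values inside that SD, such as Nusap1, with 1.28 in WT and -0.35 in KO for lipid A, and Mcm4, with -0.68 and 0.27. As each condition has 1 array, none of these differences was tested. Ccna2 had a log2 difference with lipid A of 1.15 in WT and -0.84 in KO, which differ by -1.99, and correspondingly a difference between KO and WT of 0.91 under vehicle and -1.08 under lipid A, which differ by -1.99 as well. The further probe set of Ccna2 gave -1.30 and -0.25 with lipid A, and 0.71 and 1.76 between KO and WT, without opposite signs. E2f2 had a log2 difference with lipid A of -0.45 in WT and 1.91 in KO, which differ by 2.36, where the KO vehicle signal was background. Bub1b was 0.47 higher in KO than in WT under vehicle and had a difference of -0.68 under lipid A, which differ by -1.15. Its further probe sets gave -2.32 and -1.11, and 3.92 and 0.21, so neither had opposite signs, though each had a background signal under vehicle. Mki67 had a difference between KO and WT of -0.45 under vehicle, where the KO signal was background, and of 1.86 under lipid A, which differ by 2.32.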

How the results depend on the processing

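No paired analysis was possible because the labels give no replicate numbers and each condition has 1 array. Counts of members past the threshold were small and moved with several settings, and their causes were not tested beyond what each setting itself removes or adds. With each array centred on its median, 2 members were higher with lipid A in WT, and with quantile normalization 3 were lower with lipid A in KO. With background signals raised to the array median, 1 was higher with lipid A in KO, 0 were lower in KO under vehicle, and under lipid A 1 was higher and 2 were lower in KO. With both arrays required at the median, 1 was lower with lipid A in WT, 0 were higher with lipid A in KO, 0 were higher and 0 lower in KO under vehicle, and 1 was higher and 2 lower in KO under lipid A. Without a filter, 8 were higher and 6 lower with lipid A in WT, 8 and 8 in KO, 7 higher and 9 lower in KO under vehicle, and 8 lower in KO under lipid A. With the median over probe sets 5 were lower with lipid A in WT, and with probe sets not ending in _s_at, _x_at or _a_at 4 were higher in KO under vehicle. At 1.5-fold, 6 were lower with lipid A in WT and 10 in KO, 8 were higher in KO under vehicle, and 9 higher and 7 lower in KO under lipid A. At 3-fold, 1 was higher and 1 lower with lipid A in WT, 1 was lower in KO, 1 was higher in KO under vehicle and 2 were lower in KO under lipid A.

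The median log2 difference of the members ranged from -0.49 to -0.18 for the lipid A response in WT and from -0.56 to -0.27 in KO. It ranged from -0.12, with centred arrays, to 0.38 for KO against WT under vehicle and from -0.20 to 0.17 under lipid A. Of the single named differences, 7 values changed sign. With raised background signals, Tk1 gave -0.027 for the KO response. With the median over probe sets, Ccna2 gave -0.074 for the WT response and 0.34 for KO against WT under lipid A, E2f2 gave -0.78 and Aurka 0.16 for the KO response, and E2f1 gave 0.26 for KO against WT under lipid A, as it did with probe sets not ending in _s_at, _x_at or _a_at. The signals of many mitosis genes near or below the array median limit what these arrays can show of them.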
